A study of Saccharomyces cerevisiae with 2 samples.

Results

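The small-subunit processome is the large particle that assembles on the nascent ribosomal RNA precursor and prepares it to become the small (40S) ribosomal subunit. It is built from protein modules called UTP-A, UTP-B and UTP-C, from the U3 small nucleolar ribonucleoprotein, whose RNA base-pairs with the precursor, and from helicases, GTPases, methyltransferases and late factors that follow the particle out of the nucleolus. In growing yeast these genes belong to the ribosome biogenesis regulon, which is transcribed strongly in rich medium and shut down under stress.

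The set described here holds 50 named genes of this kind, chosen by function, out of 6002 protein-coding genes on the nuclear chromosomes, and they lie on 14 of 16 chromosomes. The data are DNase-seq, in which DNase I cuts accessible chromatin in nuclei and a caller reports the stretches cut most often as hotspots. A wild-type (WT) strain was compared with a temperature-sensitive strain that carries allele G170D of Hsp90, the chaperone that stabilises kinases, receptors and other client proteins. Both strains have the W303 background and were grown at 30 °C in YPD, a rich medium. At an optical density of 0.65, up from 0.25, the cells were filtered into 37 °C medium for 15 min, a non-permissive temperature for the allele. Each strain gave 1 library, with no library from before the shift, so a strain difference that existed at 30 °C cannot be told apart from one that arose at 37 °C. Nothing in the labels says which of the paired Hsp90 genes each strain carries, or on what plasmid.

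For every member the bases covered by hotspots were counted in the 500 bp upstream of the coding start, called the upstream window, and in the coding body. The measure is presence of called hotspots, not the amount of cutting, and there is no replicate check and no test between strains. The WT list holds 7050 hotspots that cover 31.8% of the nuclear chromosomes up to their last annotated or called base, and the G170D list 5988 that cover 27.6%. Depth is unknown. A deficit in G170D is therefore read against the same count over all 6002 genes. Loss and gain compare G170D with WT and imply no order in time. A difference was called when it reached 100 bp of the upstream window or 10 percentage points of the coding body.

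A larger share of the members than of all coding genes had less upstream cover in G170D. A hotspot touched the window of 34 members in both strains, of 10 in WT alone and of 0 in G170D alone, and 6 had none. Over all coding genes, 72.4% were in both, 9.58% in WT alone, 3.65% in G170D alone and 14.4% in neither. Of the 44 members with a WT hotspot in the window, 77.3% had one in G170D, against 88.3% of the 4919 coding genes with one. These shares are not matched for WT score, which was lower for the members (median percentile 59.4, against 73.7). Covered length was lower in G170D by at least 100 bp at 16 members (32.0%, against 19.6% of all genes) and higher by that much at 4 (against 9.61%). The mean covered length went from 305 bp in WT to 241 bp in G170D for the members, and from 293 to 268 bp for all genes. The median difference was -23 bp for the members and 0 bp for all genes, but it was 0 bp for both with a 250 bp window or with the higher-scoring 50% of each list. A window covered over its full length was found at 15 members in WT, 10 in G170D and 5 in both strains, against 30.1%, 27.0% and 20.2% of all genes. These are counts from a single pair of libraries, and nothing here tests whether the members differ from other genes.

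**Figure D1:**
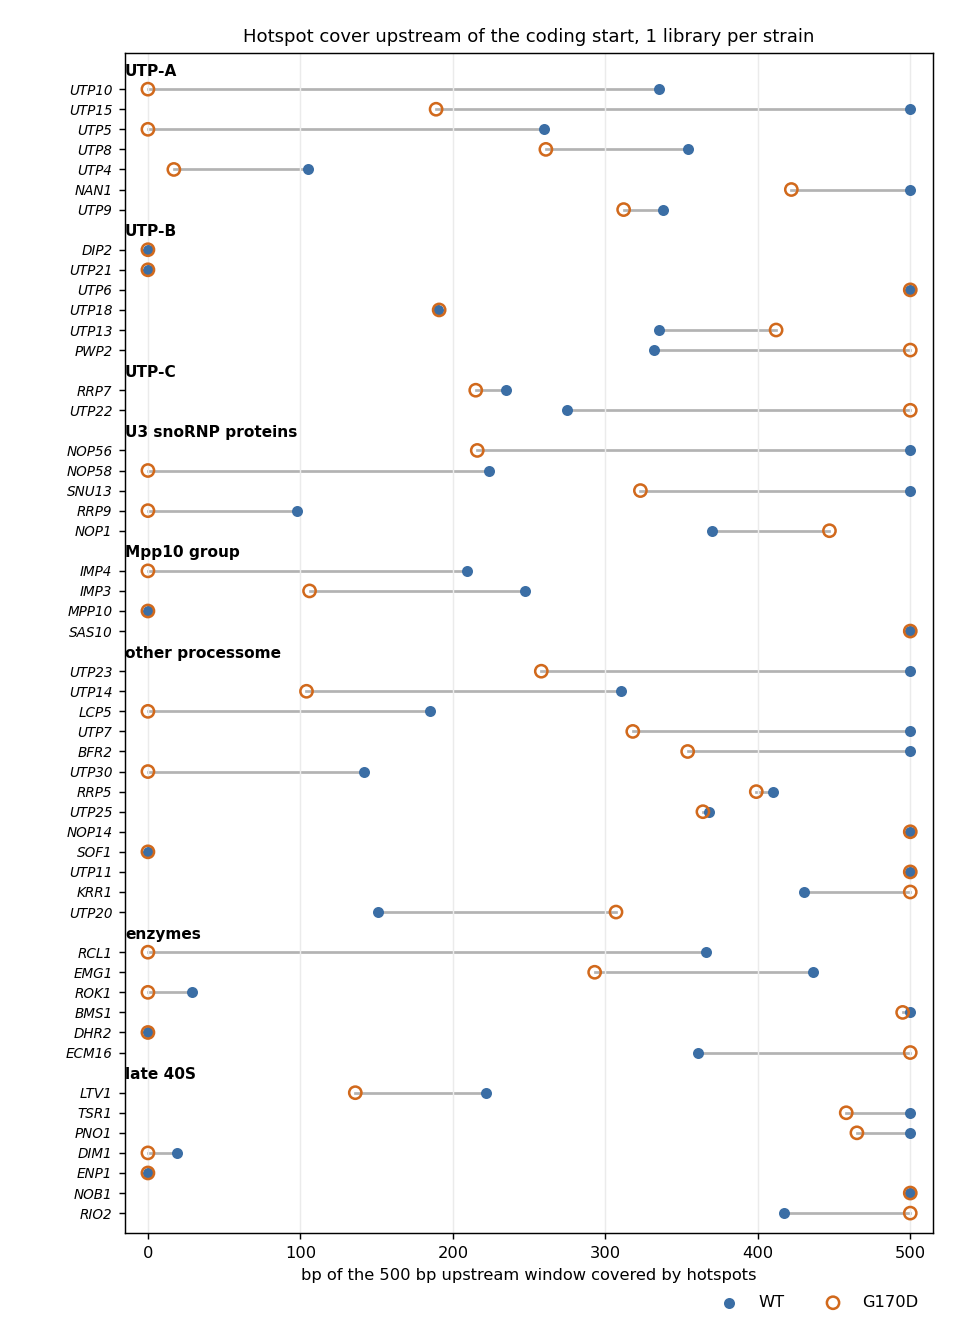
Base pairs of the 500 bp upstream window covered by hotspots (horizontal axis) for each of the 50 genes, grouped by role, with WT as filled and G170D as open circles joined by a line. All 7 UTP-A genes have the open circle to the left of the filled one, and 10 genes have the open circle at 0 with WT above 0.

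UTP-A, also called the t-UTP complex, is the module that binds the start of the precursor first and is linked to transcription of ribosomal DNA. All 7 of its genes had less upstream cover in G170D (any decrease was seen at 44.2% of all genes). With a 250 bp window, or in the intergenic part of the window only, 5 of the 7 had less. With the higher-scoring 50% of each list 4 had less. The shares over all genes were not counted at these settings, so these numbers have no background beside them. UTP10, which encodes a very large helical-repeat protein (chromosome X, 212000 to 217309, minus strand, sacCer3), had 335 bp covered in WT but 0 bp in G170D. Its WT hotspot ran from 217302 to 217644, and the nearest G170D hotspot lay 2077 bp beyond the far end of the window. UTP5 (chromosome IV, 1267471 to 1269402) had 260 and 0 bp. The UTP5 hotspot, 1267125 to 1267384, ranked at percentile 0.65 of WT scores, close to the lowest score called. It also lay in the window of the divergent gene NCB2, which went from 260 to 0 bp as well.

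The other UTP-A genes kept part of their upstream cover. At UTP15 (chromosome XIII, 454015 to 455556) a 901 bp WT hotspot filled all 500 bp of the window, while a G170D hotspot of 189 bp was left, 23 bp upstream of the start. A second G170D hotspot lay in the body, from 178 to 351 bp past the start. UTP4 had 105 bp in WT against 17 bp in G170D, UTP8 had 354 and 261 bp, NAN1 had 500 and 422 bp, and UTP9 had 338 and 312 bp. The UTP4 hotspots of both strains lay inside the body of the divergent gene YCG1, beyond a gap of 362 bp. The difference at UTP9 lay inside the body of its tandem neighbour NVJ1. Of these 7 differences, 3 reached 100 bp, a loss seen at 19.6% of all genes.

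UTP-B is the next module to join. None of its 6 genes had less upstream cover in G170D, 3 had the same and 3 had more (any increase was seen at 20.8% of all genes). PWP2, a WD-repeat subunit gene (chromosome III, 220457 to 223228, minus strand), had 332 bp covered in WT, compared with 500 bp in G170D. Its WT hotspot was 434 bp wide, and the G170D hotspot, 223113 to 224434, spanned 1322 bp and reached 116 bp into the body. That hotspot also covered the whole body of the upstream neighbour YIH1, which was 48.5% covered in WT. UTP13 had 335 and 412 bp, UTP18 had 190 and 191 bp, and UTP6 was fully covered in both strains. DIP2 and UTP21 had no hotspot in the window in either strain, so these windows had nothing to lose. The difference between UTP-A and UTP-B was seen in the values and was not tested.

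UTP-C is represented by UTP22 and RRP7. UTP22 (chromosome VII, 662358 to 666071) had the largest upstream gain of the 50 genes, from 275 bp in WT to 500 bp in G170D. The WT hotspot ended 226 bp before the start, ranked at percentile 15.7 of WT scores, and was met by a 915 bp G170D hotspot (661572 to 662486) that ran past the start. RRP7 had 235 and 215 bp.

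Among the genes of the U3 particle's proteins, 4 of 5 had less upstream cover in G170D and NOP1 had more. Any decrease was seen at 44.2% of all genes and any increase at 20.8%. A loss of at least 100 bp was seen at 3 of the 5, against 19.6% of all genes. NOP56 (chromosome XII, 546097 to 547611), which encodes a scaffold protein of box C/D particles, had 500 bp covered in WT but 216 bp in G170D. A 1386 bp WT hotspot (544737 to 546122) corresponded there to one of 330 bp (545483 to 545812) that ended 285 bp before the start. NOP58, its partner gene (chromosome XV, 896825 to 898360, minus strand), had 224 and 0 bp, and SNU13, which encodes the protein that binds the RNA's kink-turn (chromosome V, 101943 to 102323), had 500 and 323 bp. RRP9, the gene of the U3-specific WD-repeat protein, had 98 and 0 bp, just short of the 100 bp limit. NOP1, which encodes the methyltransferase fibrillarin (chromosome IV, 427364 to 428347), had 370 bp in WT but 447 bp in G170D. The U3 RNA itself comes from a pair of genes outside the 50, SNR17A and SNR17B, and the windows of both were fully covered in both strains.

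Mpp10, Imp3 and Imp4 form a group that helps U3 pair with the precursor. IMP4 (chromosome XIV, 485607 to 486479) had 209 bp in WT but 0 bp in G170D, and IMP3 (chromosome VIII, 393534 to 394085) had 247 and 106 bp. The IMP3 hotspot also served MRPL6, the divergent gene, whose window went from 322 to 106 bp. SAS10, whose protein binds Mpp10, was fully covered in both strains, and MPP10 had no upstream hotspot in either.

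Further processome genes numbered 13, and 6 of them lost at least 100 bp upstream (against 19.6% of all genes). UTP23, which encodes a nuclease-like PIN-domain protein, had 500 bp covered in WT but 258 bp in G170D. UTP14, the gene of the activator of the Ecm16 helicase, had 310 and 104 bp. Of the 310 bp in WT, 153 bp lay inside the body of the upstream neighbour GIM5. LCP5 and BFR2 encode binding partners, and LCP5 had 185 and 0 bp, while BFR2 had 500 and 354 bp. The LCP5 hotspot lay wholly inside the body of the divergent gene NSA2, which was 39.6% covered in WT and at 0 in G170D. UTP7, a WD-repeat gene, had 500 and 318 bp, and UTP30, a gene with an L1-type ribosomal protein fold, had 142 and 0 bp. UTP20, another giant helical-repeat gene, went the other way with 151 and 307 bp, with a single G170D hotspot of 539 bp where WT had a pair. KRR1 had 430 and 500 bp, RRP5 had 410 and 399 bp, UTP25 had 368 and 364 bp, and NOP14 and UTP11 were full in both strains. The KRR1 difference lay inside the body of its tandem neighbour FYV5, which was 62.5% covered in WT and 100% in G170D. SOF1 had no upstream hotspot in either strain.

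Genes of the processome's enzymes ranged over the whole scale. RCL1, which encodes the partner of the GTPase Bms1 (chromosome XV, 307938 to 309041), had the largest upstream loss of the 50, from 366 bp in WT to 0 bp in G170D. BMS1 itself had 500 and 495 bp. EMG1, the gene of a pseudouridine methyltransferase, had 436 and 293 bp. Among the RNA helicase genes, ECM16 had 361 and 500 bp, ROK1 had 29 and 0 bp, and DHR2 had none in either strain. The ECM16 gain came with a G170D hotspot of 843 bp that ran across the start, where WT had separate hotspots on each side.

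The late 40S factors showed no upstream difference of 100 bp. Of these 7 genes, LTV1, an export factor gene, had 222 bp in WT against 136 bp in G170D. Its WT hotspot met no G170D hotspot, and the 136 bp lay inside the body of the divergent gene RPC25. The window of RPC25 itself went from 208 to 0 bp. RIO2, an atypical kinase gene, had 417 and 500 bp, and TSR1, a GTPase-like factor gene, had 500 and 458 bp. The RIO2 difference lay inside the body of its tandem neighbour YNL208W, which was 13.7% covered in WT and 100% in G170D. PNO1 had 500 and 465 bp, and NOB1, the gene of the endonuclease that finishes the small ribosomal RNA, was full in both strains. DIM1, an rRNA dimethylase gene, counted as WT alone on 19 bp, and a G170D hotspot began 8 bp past its start. ENP1 had no upstream hotspot in either strain.

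**Figure D2:**
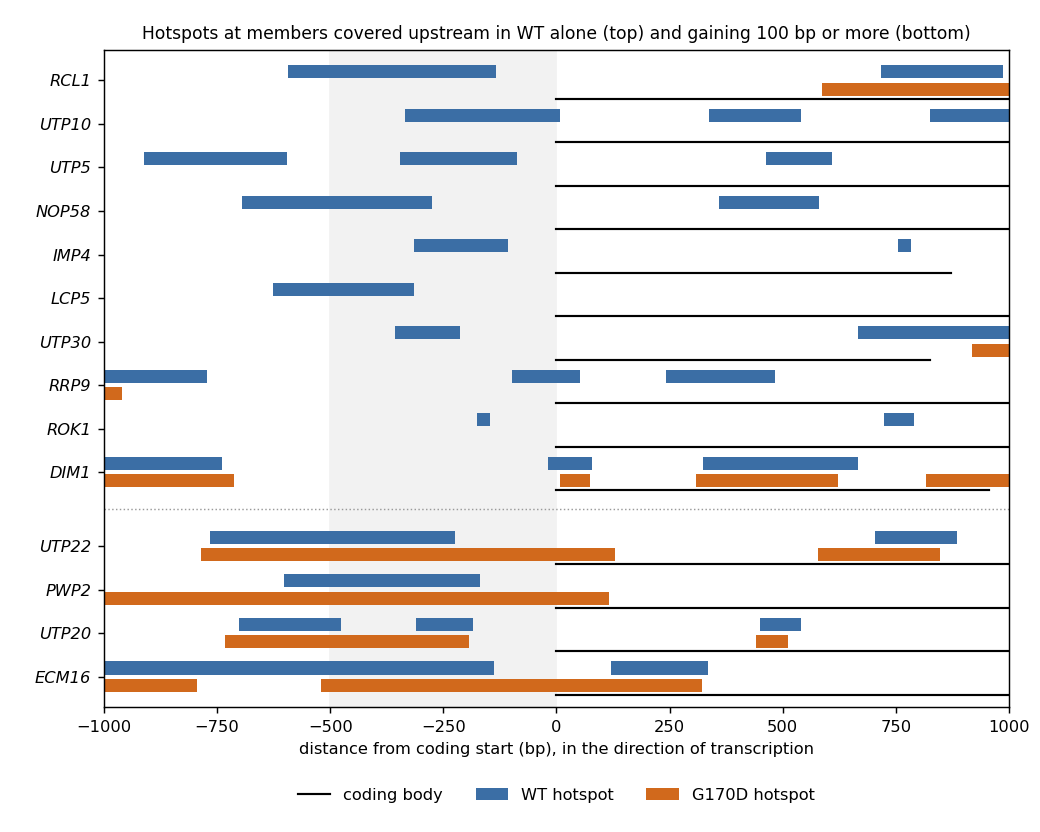
Hotspots of WT (upper bars) and G170D (lower bars) within 1000 bp of the coding start for the 10 genes with an upstream hotspot in WT alone and the 4 genes that gained 100 bp or more, with the 500 bp window shaded and the coding body as a black line. At the 4 genes with gains the G170D hotspots overlap WT ones, and they run across the start at UTP22, PWP2 and ECM16.

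The 10 WT-alone windows rested on low-ranking WT hotspots. At 9 of the 10 the highest-scoring WT hotspot of the window met no G170D hotspot anywhere, and DIM1 was the exception. This count is partly fixed by the class, since a hotspot wholly inside a WT-alone window cannot meet a G170D hotspot. That was the case at UTP5, UTP30, IMP4 and ROK1, and the same count was not made over all genes. The scores of all 10 hotspots lay between percentiles 0.65 and 42.6 of the WT list (median 25.1), and their widths between 29 and 460 bp. The 34 members with a hotspot in both strains had a median percentile of 76.8 and a median width of 797 bp. All 44 members with a WT hotspot in the window had medians of 59.4 and 549.5 bp. Over the 4919 coding genes with one, the medians were 73.7 and 719 bp, so the members' WT hotspots ranked lower and were narrower. When the 4919 genes with a WT hotspot were divided into 5 equal classes of WT score, 58.8% of the lowest class kept one in G170D, against 3 of the 13 members in that class. In each of the other classes between 89.9% and 98.8% of genes kept one, and so did all 31 members there. Among these, LTV1 (WT percentile 51.4) counted through a different G170D hotspot, since its WT hotspot met none. The part of low score in the members' losses was not tested.

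Base by base, the highest share of members covered in WT was 72.0%, first reached at -291 bp from the start. It was 72.0% again at -240 and -230 bp, so -291 bp marks no single peak. Over all genes the WT share was highest at -157 bp, at 65.7%. In G170D the highest shares were 58.0% at -191 bp for the members and 60.1% at -151 bp for all genes. At 300 bp upstream, 70.0% of members were covered in WT and 48.0% in G170D, against 58.9% and 53.8% of all genes. At 100 bp upstream the values were 56.0% and 54.0% for members, against 64.4% and 58.9% for all genes. Each member adds 2 percentage points to such a share. In 35 members part of the window lay inside a neighbouring coding body, by up to 357 bp.

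**Figure D3:**
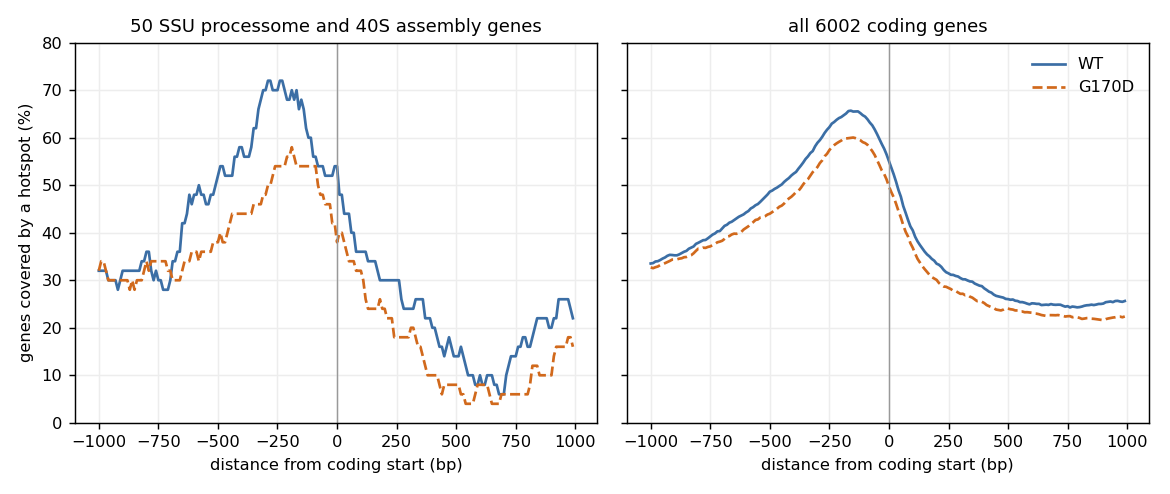
Share of genes covered by a hotspot (vertical axis, percent) by distance from the coding start (horizontal axis, bp; negative is upstream), for the 50 members at left and all 6002 coding genes at right, WT solid and G170D dashed. At -300 bp the member curves stand at 70.0% and 48.0%, and at -100 bp they are at 56.0% and 54.0%.

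Losses were seen beside upstream neighbours of either orientation. A divergent neighbour, transcribed away from the shared region, was present for 22 members (44.0%, against 52.0% of all genes). Of these, 5 lost at least 100 bp, compared with 11 of the 28 members whose upstream neighbour runs in the same direction, and 8 of the 10 WT-alone windows belonged to the latter, against 55.7% of the 575 WT-alone windows of all genes. Over all genes, losses of 100 bp were seen at 19.3% of divergent and 20.0% of tandem genes. No windows of members overlapped each other, so the losses are at separate places.

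Coding bodies of the members also held less hotspot sequence in G170D, with a few large exceptions. The median member had 19.6% of its body covered in WT and 9.40% in G170D, against 19.7% and 13.6% over all genes. The median of the differences at each gene was -7.20 points for the members and -1.41 points for all genes. Cover was lower by at least 10 percentage points at 19 members (38.0%, against 29.0% of all genes) and higher by that much at 4 (against 12.5%). At a limit of 20 points, 7 of 50 members were lower, against 15.3% of all genes, so the larger share of the members was not seen there. A body covered to at least 50% was found at 4 members in WT and 5 in G170D, against 21.7% and 19.3% of all genes. Bodies with no hotspot at all numbered 3 in WT and 14 in G170D, against 19.8% and 25.4% of all genes, whose median body is shorter (1200 bp, against 1680 bp for the members). Of 47 members with some body cover in WT, 12 had none in G170D, compared with 12.7% of all genes with WT cover.

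**Figure D4:**
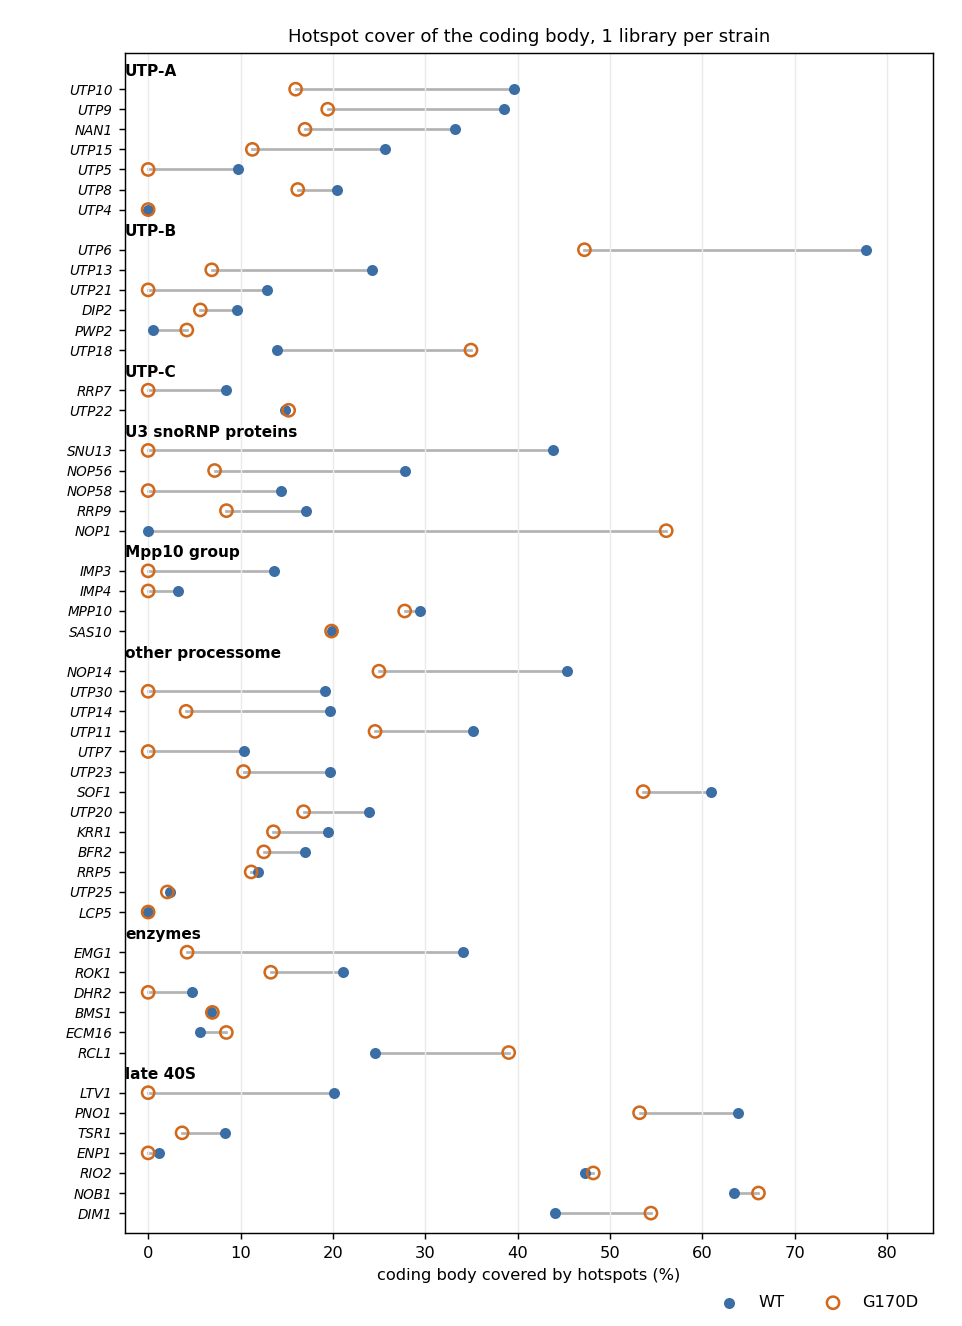
Percent of the coding body covered by hotspots (horizontal axis) for each of the 50 genes, grouped by role, with WT as filled and G170D as open circles. NOP1 moves from 0 to 56.1% and UTP18 from 13.9 to 35.0%, while SNU13, UTP6 and EMG1 have the longest lines toward lower cover.

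The largest body loss was at SNU13, which was 43.8% covered in WT and at 0 in G170D. Its WT hotspot (101264 to 102109) reached 167 bp into a 381 bp body, and the G170D one (101289 to 101765) ended 178 bp before it. UTP6 was 77.8% covered in WT and 47.2% in G170D, with its window full in both strains and an upstream hotspot that reached 415 bp into the body in WT and 104 bp in the mutant. At EMG1 cover was 34.1% and 4.22%, at UTP10 39.6% and 16.0%, and at NOP56 27.8% and 7.19%. Of 7 WT hotspots that touched the 5310 bp body of UTP10, 3 were met by a G170D hotspot. NOP14 had 45.4% and 25.0%, although its window was full in both strains.

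The remaining losses of 10 points or more were spread over the groups. LTV1 went from 20.1% to 0, UTP30 from 19.2% to 0, NOP58 from 14.4% to 0, IMP3 from 13.6% to 0, UTP21 from 12.8% to 0 and UTP7 from 10.3% to 0. UTP9 had 38.5% and 19.4%, UTP13 had 24.2% and 6.89%, NAN1 had 33.2% and 17.0%, UTP14 had 19.7% and 4.11%, and UTP15 had 25.7% and 11.3%. In this second set some body cover was left in G170D. PNO1, the KH-domain partner gene of Nob1, had 63.9% and 53.2%, and UTP11 had 35.2% and 24.6%. With smaller WT values, the bodies of UTP5 (9.68% in WT), RRP7 (8.39%), DHR2 (4.76%), IMP4 (3.21%) and ENP1 (1.17%) were also at 0 in G170D. UTP4 and LCP5 had no body hotspot in either strain.

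NOP1 stood out in the opposite direction. Its body had no WT hotspot, and a G170D hotspot from 426917 to 427915 covered 56.1% of it together with 447 bp of the window, where the WT hotspot (426872 to 427241) ended 123 bp before the start. UTP18 (chromosome X, 310922 to 312706, minus strand) had 13.9% in WT and 35.0% in G170D, with the upstream hotspot nearly the same and 3 further G170D hotspots toward the end of the body. RCL1 had 24.5% and 39.0% while its upstream hotspot was called in WT only, and DIM1 had 44.1% and 54.4%. SOF1, with no upstream hotspot, was 61.0% covered in WT and 53.6% in G170D, and NOB1 was 63.5% and 66.1% covered.

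**Figure D5:**
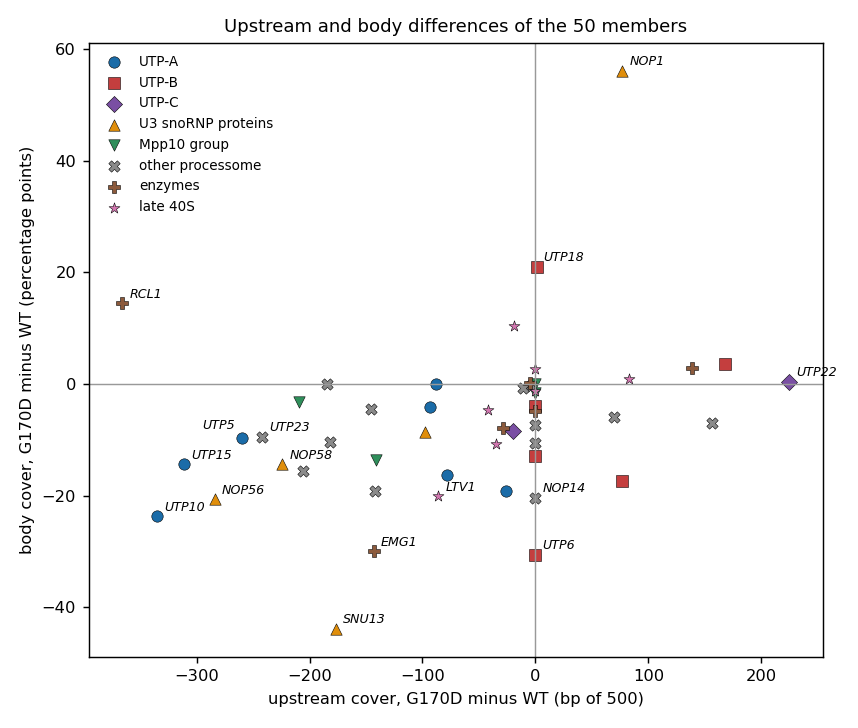
Difference of upstream cover (horizontal axis, bp, G170D minus WT) and of body cover (vertical axis, percentage points, G170D minus WT) for each of the 50 genes, with marker and color by group. The lower left quadrant, with less cover in both places, holds 25 genes, and 6 genes lie in the upper right.

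Upstream and body cover often differed the same way at a gene. Both were lower in G170D at 25 of 50 members (against 30.3% of all genes) and both were higher at 6 (12.0%, against 8.90%). A hotspot that crosses the start adds to both measures, so they are not independent. By position, with each body cut into 3 equal parts, the mean cover of the members' first part was 30.6% in WT and 19.2% in G170D, against 35.4% and 31.9% for all genes. The last part had 23.5% and 16.9%, against 28.5% and 24.4%.

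Other genes of 40S assembly outside the 50 gave hotspot classes and 100 bp losses nearer the background, but a mean upstream difference nearer that of the members. The mean was -51.0 bp, against -63.8 bp for the members and -24.9 bp for all genes, and the median was -3 bp. Of 37 such genes, 28 had a hotspot in both strains, 4 in WT alone, 2 in G170D alone and 3 in neither, and 8 (21.6%, against 19.6% of all genes) had at least 100 bp less in G170D. Those in WT alone were FAP7, an ATPase gene, with 500 and 0 bp, PRP43, a helicase gene that also serves splicing, with 467 and 0 bp, TSR2 with 188 and 0 bp, and TSR3 with 13 and 0 bp. Those in G170D alone were DBP8, an RNA helicase gene, with 0 and 443 bp, and NOP9 with 0 and 10 bp. Body cover was lower by at least 10 points at 14 of the 37 and higher at 2 (members 19 and 4 of 50), against 29.0% and 12.5% of all genes. For 64 genes of 60S assembly the differences of covered length were close to those of the 50 members. The median upstream difference was -23 bp and the mean -62.5 bp (members -63.8 bp). Any decrease was seen at 39 genes (members 30 of 50), or 60.9%, against 44.2% of all genes. The hotspot classes were nearer the background, with 48 in both strains, 6 in WT alone, 3 in G170D alone and 7 in neither. Of the 54 with a WT hotspot, 88.9% had one in G170D, against 77.3% for the members and 88.3% for all genes. The 60S genes had 16 upstream losses of 100 bp (25.0%, against 19.6% of all genes) and 4 gains (6.25%, against 9.61%). Of 56 genes of small-subunit ribosomal proteins, 9 had such losses (16.1%, against 19.6%) and 8 had gains (14.3%, against 9.61%). No test was made between these lists.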

How the data were processed

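Each strain gave 1 DNase-seq library, grouped by the source label. Build sacCer3, Bowtie 1.0.0 and FastQC 0.10.1 are named in the submitters' processing notes. For the hotspot caller and its threshold, the sources used here name nothing. The deposited score of each hotspot has no stated meaning and served only as a rank inside each list. Hotspots were called per sample, and depth is unknown. Depth or digestion could alter how many hotspots are called, and their part in the strain difference was not tested. An alternative set both lists to equal length, which does not equalise depth.

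Members were matched by symbol (50 of 50) to RefSeq R64 genes, with strand read from W or C in the systematic name. Annotated bodies hold no untranslated regions. Positions count from 1. Members, lists and thresholds were chosen with earlier results of these data known. Named genes were those with a hotspot in 1 strain, those past a threshold, and those with empty or full windows. With 1 library per strain no test was made. Simulated hotspots at 200 genes gave the known cover at 200. Computation used Python 3.11.15, numpy 2.4.6 and pandas 2.3.3.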

Additional observations from a re-analysis of the deposited data

How the results depend on the processing

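In brackets are the values over all genes, which were not counted for the UTP-A and UTP-B numbers. With both lists at the same length, 8 members had an upstream hotspot in WT alone (7.33%) and 15 lost at least 100 bp (17.9%). The higher-scoring 50% of each list gave 19 members in both strains (51.2%), 9 in WT alone (11.5%), 4 in G170D alone (6.18%) and 18 in neither (31.1%), a median body difference of -1.67 points (0), and 4 UTP-A and 1 UTP-B genes with less upstream cover. Counting midpoints gave 20 in both (36.4%), 13 in WT alone (16.6%), 4 in G170D alone (11.2%) and 13 in neither (35.7%), so the members' share in both was then above that of all genes. A 250 bp window left 9 losses of 100 bp (10.6%). In the intergenic part only, 10 members were in WT alone (9.43%), 14 lost at least 100 bp (15.4%) and 5 gained that much (7.35%). UTP-A genes with less upstream cover numbered 5 with a 250 bp window and in the intergenic part only. They numbered 6 with lists of the same length and with a 1000 bp window. A 1000 bp window gave 8 gains (15.5%), no fewer than background, with 3 members in neither class (9.68%) and 1 UTP-B gene with less cover. A limit of 50 bp gave 8 gains (12.98%), above background, and one of 200 bp gave 9 losses (9.63%) and 1 gain (5.48%). A limit of 20 points left 7 bodies with less (15.3%) and 2 with more cover (9.43%), so the excess of less covered bodies was gone. Without the first 300 bp of the body the median body difference was -3.43 points (0), where the main count had -7.20 points (-1.41). The median upstream difference was 0 bp (0) with the higher-scoring 50% and with a 250 bp window, and -4.5 bp (0) in the intergenic part only; its interval over genes, -88 to 0 bp, is wide. In all, 49 values stayed within 1.5 times the main count or inside such an interval, and 19 moved further. Since the upstream interval reaches 0 bp, a median of 0 bp counted as unchanged. These intervals are over genes and do not measure the spread between libraries. Joining hotspots less than 100 bp apart could change nothing, since the smallest gap was 151 bp in both lists, and is not counted. No paired analysis was possible because each strain had 1 library. Counting shared upstream regions once was not run, since no windows of members overlapped, and the planned motif counts were not run, since no sequence was used here.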
